A study of Mus musculus with 27 samples.

Results

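The 9 genes described here, Sfrp1, Sfrp2, Sfrp4, Frzb, Wif1, Dkk2, Dkk3, Rspo2 and Rspo3, encode secreted modulators of Wnt signalling. They were chosen by name and read from the rows with those symbols, 9 of 42375 gene rows in each of 4 bulk RNA count tables and 9 of 32285 genes in each of 4 single-cell matrices. All mice had a C57BL/6 background and had been infused for 28 days with angiotensin II (Ang II), a vasoconstrictor peptide whose infusion causes hypertension and vascular scarring, so that every group carries that treatment and no untreated group is compared. By its title the study concerns perivascular fibrosis and a KLF10 and IL-9 axis of CD4+ T cells, and mice labelled TKO are compared with mice labelled Cre. The labels define neither name, and give no allele, Cre driver, sex, age or pooling of animals. Bulk libraries came from non-stripped aorta (3 TKO, 3 Cre), stripped aorta (2 TKO, 4 Cre), isolated aortic fibroblasts (3 TKO, 3 Cre), and non-stripped TKO aorta of mice that had also received an anti-IL-9 antibody (2) or IgG (3). Single-cell libraries came from digested non-stripped aorta (2 TKO, 2 Cre). The titles of the stripped samples call them non-stripped while their other fields call them stripped, which was followed, and what stripping removed is not said. Nothing in the labels says that the samples of a group came from separate animals, so the p-values measure the spread between these samples.

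Wnt proteins are secreted lipid-modified ligands that bind Frizzled receptors and the co-receptors LRP5 and LRP6 on the cell surface, and in one branch of the pathway stabilise beta-catenin in the receiving cell. Secreted frizzled-related proteins (Sfrp1, Sfrp2, Sfrp4 and Frzb, also called Sfrp3) carry a Frizzled-like domain and bind Wnts outside the cell, as does Wif1 (Wnt inhibitory factor) through a different domain. Dickkopf proteins such as Dkk2 bind the LRP co-receptors, Dkk3 is a divergent relative whose part in Wnt signalling is disputed, and R-spondins (Rspo2, Rspo3) bind LGR receptors and raise the amount of Frizzled at the surface. In arteries, fibroblasts of the outer layer, smooth muscle and endothelium all take part in Wnt signalling.

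In the GENCODE annotation of GRCm38, Sfrp1 (ENSMUSG00000031548) lies at chr8:23411502-23449632 on the plus strand, Sfrp2 (ENSMUSG00000027996) at chr3:83766321-83774316 on the plus strand, and Sfrp4 (ENSMUSG00000021319) at chr13:19623104-19632994 on the plus strand. Frzb (ENSMUSG00000027004) lies at chr2:80411970-80447625 on the minus strand and Wif1 (ENSMUSG00000020218) at chr10:121033960-121100650 on the plus strand. Dkk2 (ENSMUSG00000028031) lies at chr3:132085292-132180304 on the plus strand and Dkk3 (ENSMUSG00000030772) at chr7:112116017-112159057 on the minus strand. Rspo2 (ENSMUSG00000051920) lies at chr15:43020794-43170826 and Rspo3 (ENSMUSG00000019880) at chr10:29452416-29535867, both on the minus strand. Exons of Sfrp2 overlap an antisense gene, Gm26771, and exons of Rspo3 overlap the antisense gene Gm48159, and since no strand setting is given for the counting, reads of these pairs cannot be told apart. Rspo2 lies 4.72 Mb from Klf10 on the same chromosome, and whether that position bears on its level was not tested.

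RefSeq promoter windows, 250 bases before to 50 after the annotated start on GRCm38.p6, were at hand for 4 of the 9 genes. The windows of Frzb and Dkk2 are shown because these genes had opposite orders of TKO and Cre libraries in fibroblast-like cells, neither passing the test, and that of Sfrp2 because its level differed between anti-IL-9 and IgG aortas. Capitals mark matches to a TCF/LEF core (CTTTGA or CTTTGT, both strands), a GC box (GGGCGG, both strands) or a TATA box (TATAAA, the strand shown). Each window is written 5′ to 3′ on the strand of its gene, Frzb as chr2:80447347-80447646 on the minus strand, Dkk2 as chr3:132085042-132085341 on the plus strand, and Sfrp2 as chr3:83766071-83766370 on the plus strand.
Frzb: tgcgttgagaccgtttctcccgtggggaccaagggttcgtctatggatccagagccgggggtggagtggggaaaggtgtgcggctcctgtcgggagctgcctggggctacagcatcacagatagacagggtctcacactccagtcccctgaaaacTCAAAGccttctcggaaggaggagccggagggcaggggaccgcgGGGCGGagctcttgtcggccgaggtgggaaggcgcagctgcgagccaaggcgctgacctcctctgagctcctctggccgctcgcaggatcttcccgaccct
Dkk2: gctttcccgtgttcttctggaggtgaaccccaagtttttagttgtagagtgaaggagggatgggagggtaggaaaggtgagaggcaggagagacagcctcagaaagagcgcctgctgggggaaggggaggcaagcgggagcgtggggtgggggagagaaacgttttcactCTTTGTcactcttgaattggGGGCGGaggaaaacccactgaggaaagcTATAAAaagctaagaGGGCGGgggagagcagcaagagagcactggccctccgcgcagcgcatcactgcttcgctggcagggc
Sfrp2: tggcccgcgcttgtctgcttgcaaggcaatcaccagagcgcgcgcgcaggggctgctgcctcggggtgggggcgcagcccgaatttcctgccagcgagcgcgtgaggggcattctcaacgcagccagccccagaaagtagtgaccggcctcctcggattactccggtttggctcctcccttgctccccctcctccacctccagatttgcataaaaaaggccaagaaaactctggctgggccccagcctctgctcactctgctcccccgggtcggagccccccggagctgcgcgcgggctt
The Frzb window holds a TCF/LEF core (TCAAAG) at -95 and a GC box at -51 from the RefSeq start (80447396, while the GENCODE gene starts at 80447625). The Dkk2 window holds a TCF/LEF core (CTTTGT) at -80, GC boxes at -60 and -17, and a TATA box at -32, and the Sfrp2 window holds none of the 3 motifs. Of all 32817 windows, 31.2% hold a TCF/LEF core, 35.6% a GC box and 8.32% a TATA box, so that such matches are common, and a match is a description of the letters, not a site in use.

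Bulk libraries held 17179257 to 38633457 counts, and levels are CPM, counts relative to the scaled library total. After filtering, the single-cell libraries held 15128 and 7317 TKO cells and 13919 and 6441 Cre cells, with median depths of 1579 and 1398 UMIs in TKO and 2690 and 1672 UMIs in Cre, and pairs of libraries shared 12 to 64 cell barcodes. Before filtering, the median mitochondrial share of barcodes was 7.25% and 10.8% in TKO libraries and 9.32% and 18.2% in Cre libraries. That of Cre replicate 2 thus lay above the cap of 15%. The filter passed 15365 of 32531 and 7425 of 25044 TKO barcodes, and 14489 of 24216 and 6533 of 33207 Cre barcodes. Klf10 had 41.2, 35.4 and 0 CPM in non-stripped TKO aorta, against 40.6, 50.1 and 65.7 CPM in non-stripped Cre aorta, so that 1 of 3 TKO libraries had no count of it. It had 65.6, 58.2 and 71.2 CPM in TKO fibroblasts, against 73.2, 60.9 and 66.6 CPM in Cre fibroblasts. Since TKO is not defined, these values are no check of the labels. All 8 fibroblast markers (Col1a1, Col1a2, Col3a1, Pdgfra, Dcn, Lum, Dpt, Pi16) were present in every bulk table. Their summed level was 27525 to 45835 CPM in stripped TKO aorta and 27644 to 43956 CPM in stripped Cre aorta, but 960 to 1330 CPM in non-stripped TKO aorta and 886 to 1184 CPM in non-stripped Cre aorta, where white adipocyte markers summed to 9462 to 12317 CPM in TKO and 12087 to 13251 CPM in Cre. In non-stripped aorta, markers of skeletal muscle also summed to 2821 to 11544 CPM in TKO libraries, against 285 to 929 CPM in Cre libraries. Of 24 cell type lists, 3 were higher in TKO without overlap (skeletal muscle, cardiac muscle, sympathetic neuron), against 14.8% of single genes. Another 3 were lower (endothelial, Schwann, mesothelial), against 10.7% of single genes. The sympathetic neuron list was chosen after the values were seen, so its place among the higher lists is a description only. Endothelial markers summed to 608 to 710 CPM in TKO, against 802 to 922 CPM in Cre. The part of these lists in the genotype comparison was not tested. In the single-cell libraries the fibroblast-like class had 4296 CPM of Col1a1, against 365 CPM in the other cells, and 332 CPM of Pdgfra, against 15.4 CPM. The endothelial-like class had 1400 CPM of Pecam1, against 76.8 CPM in the other cells, and the smooth muscle-like class 4018 CPM of Myh11, against 87.0 CPM, so that each name rests on its markers.

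Per kilobase of exon, the order of the 9 genes depended on the sample. In stripped aorta Sfrp2 was highest, at 306 ± 76.4 CPM per kb in TKO (SD, n = 2) and 425 ± 74.7 in Cre (n = 4), followed by Dkk3 at 150 ± 30.6 in TKO and 157 ± 11.8 in Cre. Sfrp1 (90.0 ± 16.2 in TKO, 73.3 ± 16.2 in Cre) and Sfrp4 (83.0 ± 36.8 in TKO, 64.6 ± 25 in Cre) did not differ from each other beyond their spread, and Frzb followed with 44.9 ± 16.9 in TKO and 34.0 ± 2.77 in Cre. Wif1, Dkk2, Rspo3 and Rspo2 lay at 0.833 to 6.42 CPM per kb in both genotypes. In isolated fibroblasts Sfrp2 (17.4 ± 13.4 in TKO, 10.7 ± 4.69 in Cre), Sfrp1 (12.4 ± 6.36 in TKO, 5.79 ± 1.62 in Cre) and Frzb (12.3 ± 4.14 in TKO, 4.73 ± 1.85 in Cre) led. In non-stripped aorta Dkk3 led, at 11 ± 0.92 CPM per kb in TKO and 9.86 ± 0.972 in Cre (n = 3 each). The tables were counted apart, and the tissues are not compared by a test.

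The fibroblast-like cells divided into 5 clusters, and these held the 9 genes unevenly. Sfrp2 was highest in cluster 0 (led by Col1a1, Mmp3 and Fmod), at 1013 ± 320 CPM (mean ± SD, n = 4 libraries). Sfrp4 was highest in cluster 1 (led by Penk, Gsn and Gpx3), at 1011 ± 379 CPM, and averaged 549 ± 231 CPM in cluster 0. Dkk2 was highest in cluster 1 as well, at 234 ± 112 CPM, with 71.0 ± 19.0 CPM in cluster 8 as its next highest cluster. Rspo2 was the sparsest of these, at 10.2 ± 6.74 CPM in cluster 0 and 8.32 ± 8.17 CPM in cluster 1, which do not differ beyond their spread.

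The other 5 genes were highest outside the fibroblast-like cells. Sfrp1 reached 925 ± 323 CPM in cluster 15, an endothelial-like cluster led by Cytl1, Bmp4 and Edn1, against 310 ± 190 CPM in fibroblast-like cluster 0, 284 ± 117 CPM in cluster 1 and 279 ± 171 CPM in the Schwann-like cluster. Frzb had 161 ± 85.7 CPM in cluster 15 and 71.4 ± 15.6 CPM in cluster 0, which overlap between libraries. In another endothelial-like cluster, cluster 9 (led by Gpihbp1, Flt1 and Kdr), Sfrp1 averaged 16.5 ± 16.2 CPM and Frzb 1.12 ± 1.39 CPM, so that the 2 endothelial-like clusters differed in both genes. Endothelial-like cells held 16.4% and 8.71% of the Sfrp1 UMIs in TKO libraries and 46.3% and 31.2% in Cre libraries, where their share of all UMIs was 6.43% to 6.66% in the 4 libraries. Dkk3 had 264 ± 64.1 CPM in the smooth muscle-like cluster and 227 ± 73.7 CPM in cluster 0, which overlap, and Wif1 had 39.0 ± 12.3 CPM in the smooth muscle-like cluster and 11.4 ± 3.44 CPM in cluster 0, which do not. Rspo3 was highest in the lymphatic endothelial-like cluster, at 29.1 ± 9.36 CPM, followed by 17.6 ± 8.31 CPM in cluster 0. With every cell thinned to 1000 UMIs, which left no kept cell out, each of the 9 genes kept its highest cluster, and with at least 2000 UMIs per cell 8 of 9 did, Rspo2 being the exception.

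**Figure D1:**
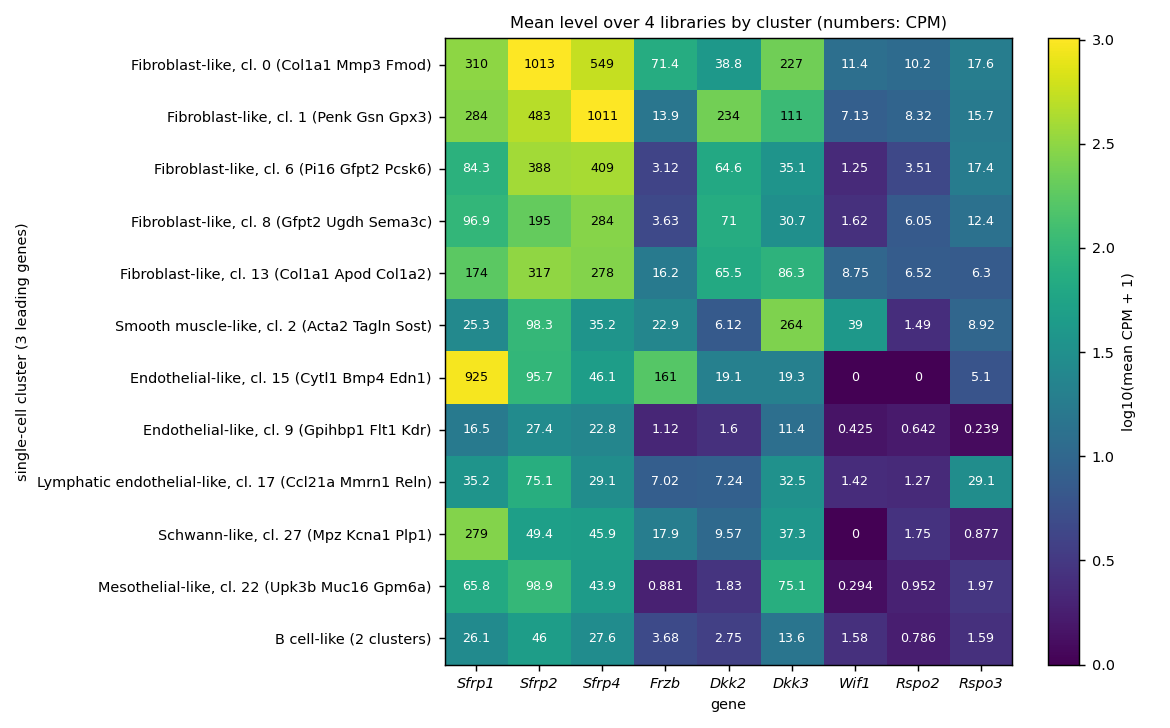
Mean CPM over the 4 single-cell libraries of each of the 9 genes (columns) in 12 cell populations (rows), as colour. Sfrp2 and Sfrp4 are brightest (highest) in fibroblast-like clusters, Sfrp1 and Frzb in an endothelial-like cluster, and Dkk3 and Wif1 in smooth muscle-like cells.

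B cell-like cells, which are not known to make these proteins, held a low level of each gene, taken here as background. Whether this level comes from free RNA was not tested. It averaged 46.0 CPM for Sfrp2, 27.6 CPM for Sfrp4, 26.1 CPM for Sfrp1, 13.6 CPM for Dkk3 and 0.786 to 3.68 CPM for the other 5. This background was itself uneven: Sfrp4 in B cell-like cells had 71.5 and 32.3 CPM in TKO libraries, against 4.83 and 1.66 CPM in Cre libraries. The Rspo2 background was 3.14 and 0 CPM in TKO libraries, against 0 and 0 CPM in Cre libraries. The B cell-like cells formed 2 clusters, which the libraries shared unevenly. Cluster 11 held 848 and 341 cells of the TKO libraries and 45 and 336 of the Cre libraries. Cluster 14 held 3 and 4 cells of the TKO libraries and 1201 and 22 of the Cre libraries.

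Across clusters, the genes with the most similar pattern (Pearson r of log2(CPM + 1) over 28 clusters, among 13136 genes) were Col1a2 (r = 0.947), Lum and Col1a1 for Sfrp2, and Lum (r = 0.962), Pdgfra and Serpinf1 for Sfrp4. For Dkk2 they were Mmp2 (r = 0.940), Pcolce2 and Pdgfra, and for Dkk3 Tgfb3 (r = 0.931), Lhfp and Fibin. For Sfrp1 they were Cyp1b1 (r = 0.873), Gxylt2 and Col5a2, for Frzb Eln (r = 0.844), Gxylt2 and Bgn, and for Rspo3 Ntn1 (r = 0.866), P3h3 and Ecm2. Those of Rspo2 (Gm12022, r = 0.893, Bdh2 and Serpinf1) and Wif1 (Ccdc42, r = 0.821, 2210407C18Rik and Mfap4) rest on few UMIs. The clusters share the 4 libraries, and these values are a description only.

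Between TKO and Cre, none of the 9 genes passed an adjusted p of 0.05 by edgeR's quasi-likelihood test in any of the 5 sample sets, where few genes of any kind did. In non-stripped aorta 0 of 6 tested members were called, against 0.119% of all 15162 tested genes, with 1 member at an unadjusted p under 0.05 (17.9% of genes) and 0 called by DESeq2 (5.24% of genes). In stripped aorta 0 of 9 were called, against 0.0240% of all genes, with 1 at an unadjusted p under 0.05 (13.8%) and 0 by DESeq2 (3.54%). In isolated fibroblasts 0 of 8 were called, against 0.0638%, with 5 at an unadjusted p under 0.05 (12.1% of genes) and 3 by DESeq2 (2.68% of genes). In all single cells summed per library, 0 of 9 were called, against 0.140%, with 4 at an unadjusted p under 0.05 (2.26%) and 3 by DESeq2 (0.593%). In fibroblast-like cells summed per library, 0 of 9 were called, against 0%, with 6 at an unadjusted p under 0.05 (4.91%) and 1 by DESeq2 (0.324%), which gave no adjusted p for Rspo2 and Wif1. By level alone, 4 of 8 members were higher in every TKO than in every Cre fibroblast library (Sfrp1, Frzb, Rspo2, Dkk3), against 8.86% of all genes, and none was lower, against 8.43%. In stripped aorta 1 of 9 was higher without overlap (Rspo2), against 12.0% of genes, and in non-stripped aorta 0 of 6, against 14.8%. In the single-cell sums 6 of 9 were higher, against 10.9%, and 1 lower (Dkk2), against 9.58%, and in fibroblast-like cells 7 of 9 were higher and 2 lower (Dkk2 and Rspo3), against 14.9% of genes in each direction. The members were chosen with such values known, so these counts describe them only.

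**Figure D2:**
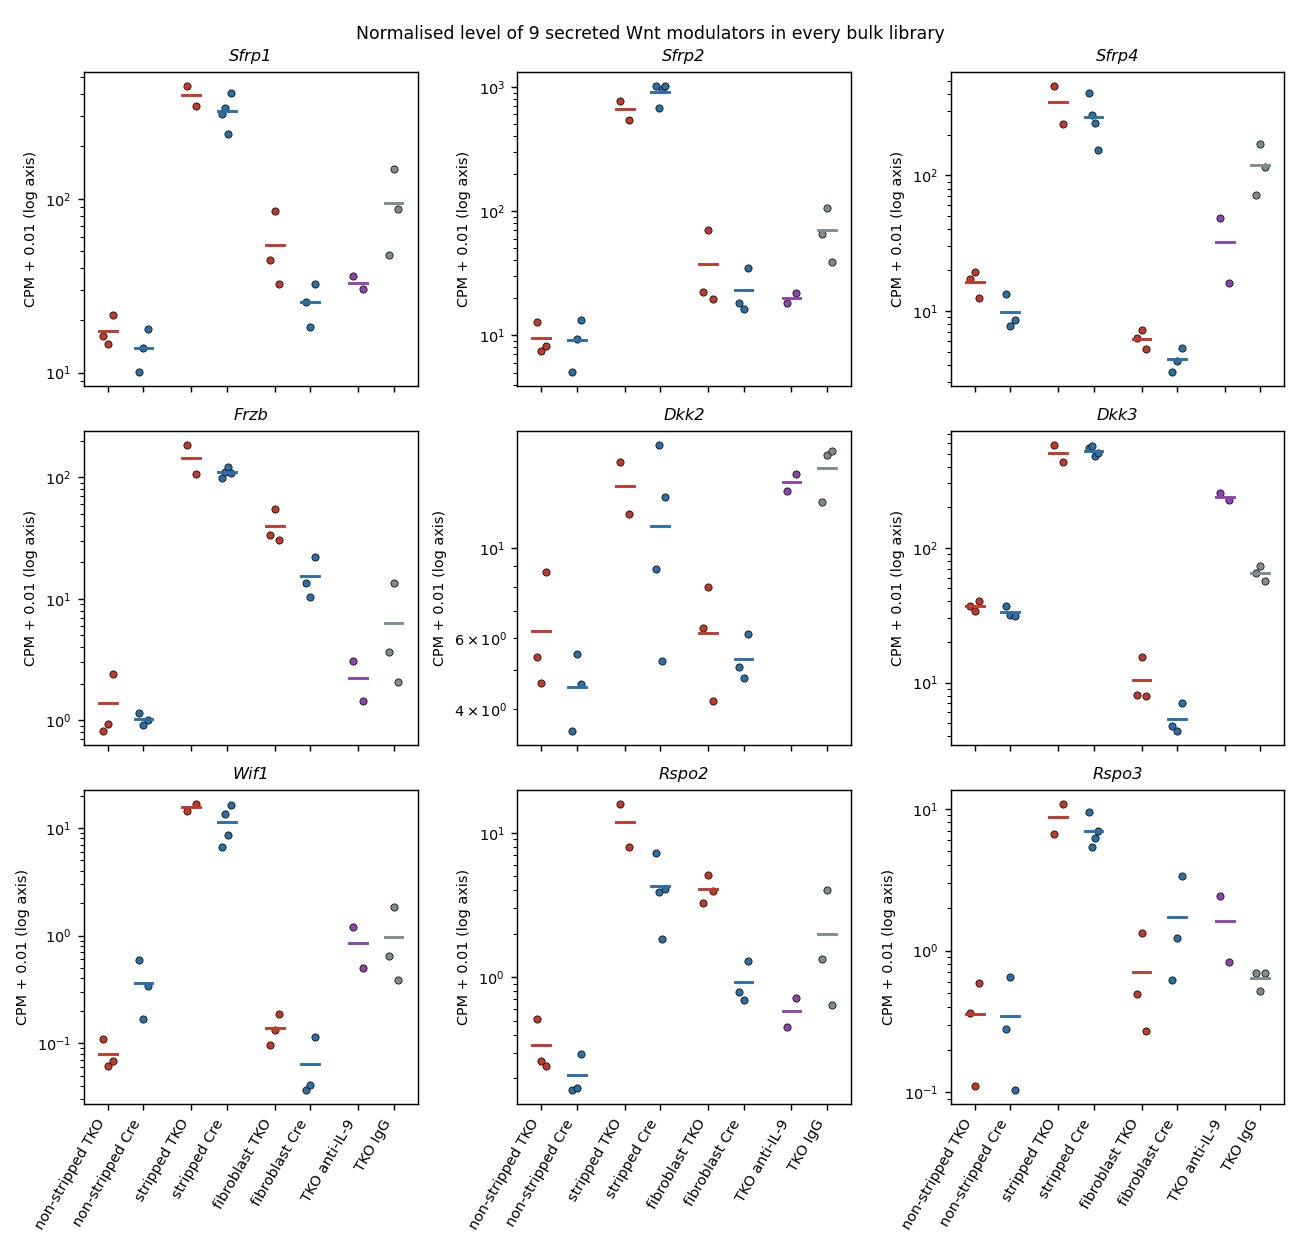
CPM (log axis, 0.01 added) of the 9 genes in every bulk library, one panel per gene, with a line at the mean of each group. The TKO fibroblast libraries lie above the Cre fibroblast libraries for Rspo2, Frzb, Sfrp1 and Dkk3, and Dkk3 lies higher in the anti-IL-9 libraries than in the IgG libraries.

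Of the R-spondins, Rspo2, which amplifies Wnt signals through LGR receptors, had the largest log2 fold change of the 9 in isolated fibroblasts and in both single-cell sums. In isolated fibroblasts it had 3.24, 5.11 and 3.94 CPM in TKO libraries, against 0.773, 0.685 and 1.28 CPM in Cre libraries. The lowest TKO library lay above the highest Cre library. The log2 fold change was 2.17 ± 0.30 (SE; a 4.51-fold difference), with an adjusted p of 0.0832 by edgeR and 6.12e-08 by DESeq2. In stripped aorta Rspo2 had 15.7 and 7.99 CPM in TKO libraries, against 7.22, 3.89, 1.82 and 4.10 CPM in Cre libraries, and the lower TKO library lay just above the highest Cre library. The log2 fold change there was 1.47 ± 0.48, with an adjusted p of 0.267 by edgeR. In bulk libraries of tissue, fewer cells of a type and less RNA per cell cannot be told apart, and in stripped aorta white adipocyte markers summed to 4710 to 5099 CPM in TKO libraries, against 1120 to 2781 CPM in Cre libraries. Of the 24 cell type lists, 5 were higher and 2 lower in stripped TKO aorta without overlap, against 12.0% and 11.6% of single genes. Besides white adipocyte, the lists of brown adipocyte (670 to 839 CPM in TKO, 348 to 529 CPM in Cre), Schwann (281 to 537 CPM in TKO, 109 to 261 CPM in Cre), B cell and proliferation markers were higher in TKO. Smooth muscle markers (3675 to 5665 CPM in TKO, 6016 to 7122 CPM in Cre) and mesothelial markers (23.7 to 27.3 CPM in TKO, 61.4 to 164 CPM in Cre) were lower in TKO. The part of these lists in the stripped values of Rspo2 and the other members was not tested. In non-stripped aorta Rspo2 had 4 to 10 counts per TKO library and 3 to 6 per Cre library, below the filter on low counts.

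In the single-cell libraries, Rspo2 had 5.36 and 4.30 CPM over all TKO cells, against 0.683 and 0.773 CPM over all Cre cells. The groups did not overlap, and the log2 fold change was 2.75 ± 0.38 (adjusted p = 0.132, edgeR). It passed without Cre replicate 2 (adjusted p = 0.0242, edgeR), in a fit that called 0.761% of all genes with the lone Cre library assumed to vary like the TKO libraries, and over the 4 fits that each left out 1 library the adjusted p ran from 0.0242 to 1.00. These values rest on 158 and 48 UMIs in TKO libraries and 33 and 9 UMIs in Cre libraries. Fibroblast-like cells held 81.0% and 85.4% of these UMIs in TKO libraries, and 97.0% and 88.9% in Cre libraries.

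Within fibroblast-like cells, Rspo2 had 13.8 and 11.8 CPM in TKO libraries, against 2.75 and 3.29 CPM in Cre libraries (log2 fold change 2.13 ± 0.31, adjusted p = 0.561, edgeR). Over the 4 fits that each left out 1 library the edgeR adjusted p ran from 8.62e-05, without Cre replicate 2, to 1.00. In that fit the lone Cre library is assumed to vary like the TKO libraries, and it called 9.03% of all 14135 tested genes, where the fit without Cre replicate 1 called 0.922%, those without a TKO replicate 0% and the fit of all 4 libraries 0%. After thinning to 1000 UMIs, from 1 random draw, a UMI of Rspo2 was found in 1.38% of cells (exact 95% interval 1.07% to 1.74%) and 0.833% of cells (0.509% to 1.28%) in the TKO libraries, against 0.240% (0.110% to 0.455%) and 0.268% (0.0731% to 0.685%) in the Cre libraries. Unthinned, the shares were 2.27% and 1.62% in TKO, against 0.693% and 0.335% in Cre. In B cell-like cells the thinned shares were 0.470% and 0% in TKO libraries, and 0% in both Cre libraries, where 0 of 345 TKO cells allows up to 0.870% and 0 of 1246 and 358 Cre cells up to 0.241% and 0.838%. The interval of TKO replicate 1 lay above those of both Cre libraries but overlapped that of its own B cell-like cells (0.128% to 1.20%). The interval of TKO replicate 2 overlapped that of Cre replicate 2 in fibroblast-like cells. An earlier draw had given TKO replicate 2 a higher share, within the interval printed here, so that this overlap may depend on the draw. Fibroblast-like cells held 31.5% and 30.9% of all UMIs in TKO libraries and 24.7% and 20.5% in Cre libraries, less than their share of the Rspo2 UMIs in each of the 4. These intervals cover counting error only, and median depths in fibroblast-like cells were 1535 and 1351.5 UMIs in TKO and 2476 and 1497.5 UMIs in Cre.

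The make-up of the fibroblast-like cells also differed between the libraries. Cluster 0 held 53.8% and 44.4% of them in TKO, against 17.9% and 18.8% in Cre. Cluster 1 held 11.9% and 11.3% in TKO, against 41.4% and 10.3% in Cre, and cluster 8 held 11.4% and 22.4% in TKO, against 4.08% and 44.0% in Cre. Cluster 6 held 8.28% and 9.78% in TKO, against 33.1% and 16.0% in Cre, and cluster 13 held 14.7% and 12.1% in TKO, against 3.60% and 11% in Cre. The shares of clusters 0, 6 and 13 did not overlap between the genotypes, and those of clusters 1 and 8 did. Rspo2 was therefore also read within a cluster. In cluster 0 it had 17.4 and 14.2 CPM in TKO, against 2.89 and 6.37 CPM in Cre (log2 fold change 2.01 ± 0.53), and in cluster 1 it had 16.4 and 14.2 CPM in TKO, against 2.70 and 0 CPM in Cre (log2 fold change 2.62 ± 0.79). Neither passed the edgeR test (adjusted p = 0.694 and 1.00), the difference was about as large as over all fibroblast-like cells, and the Cre values rest on 5 and 3 UMIs in cluster 0 and on 11 and 0 UMIs in cluster 1. These cluster levels are CPM of the summed UMIs, without the TMM factors used for the sums above.

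**Figure D3:**
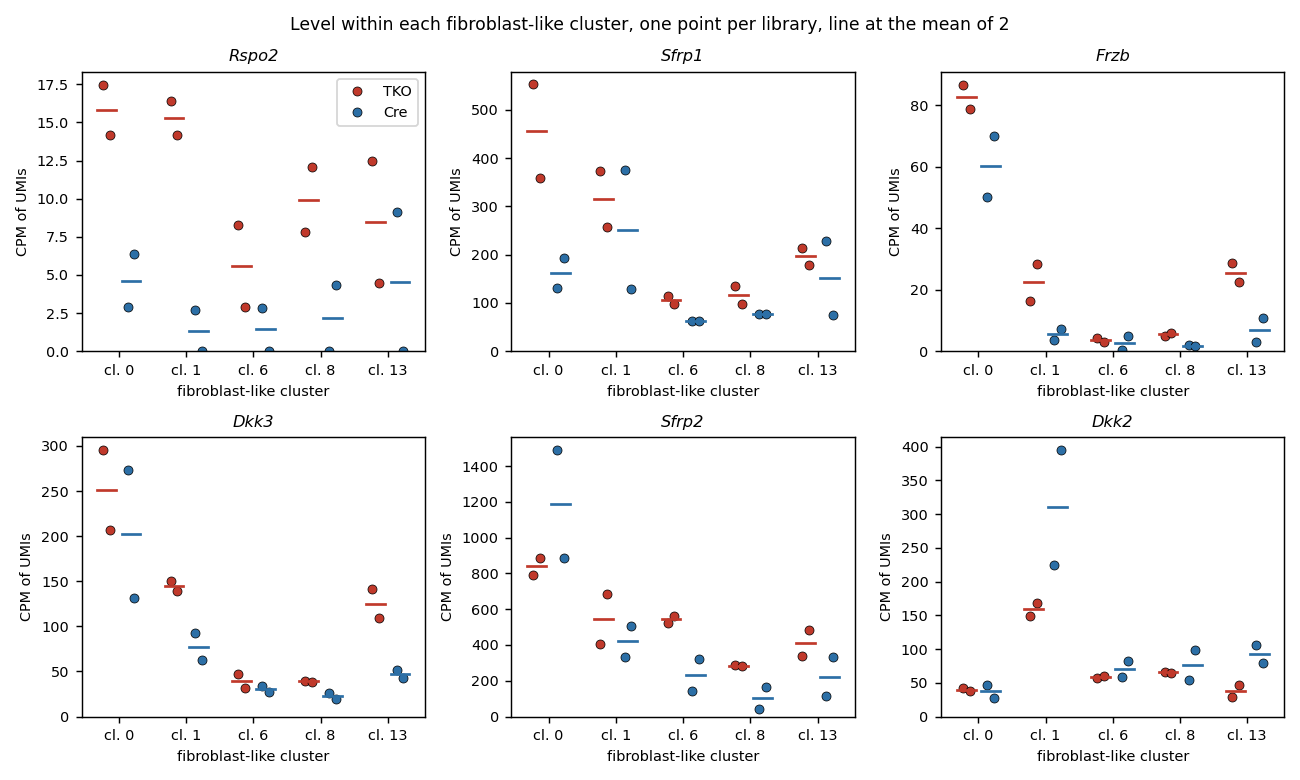
CPM per single-cell library of Rspo2, Sfrp1, Frzb, Dkk3, Sfrp2 and Dkk2 in the fibroblast-like clusters 0, 1, 6, 8 and 13, with TKO points left of Cre points. Rspo2 lies higher in both TKO libraries than in both Cre libraries in clusters 0, 1, 6 and 8, while Sfrp2 in cluster 0 is highest in a Cre library.

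Rspo3, the R-spondin with known roles in endothelium, showed no common order across sample types. In fibroblasts it had 0.484, 1.32 and 0.263 CPM in TKO libraries, against 0.613, 1.21 and 3.33 CPM in Cre libraries (log2 fold change -1.30 ± 0.72, adjusted p = 0.510, edgeR), with overlapping groups and 1 high Cre library. In fibroblast-like cells it had 8.54 and 16.1 CPM in TKO, against 23.1 and 16.5 CPM in Cre, and in stripped aorta 6.60 and 10.7 CPM in TKO, against 9.45, 5.32, 6.16 and 6.98 CPM in Cre. None of these Rspo3 tests passed, while in fibroblast-like cells its adjusted p by edgeR was 0.0416 without Cre replicate 2 (log2 fold change -0.99), in the fit that called 9.03% of all genes.

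Among the Wnt-binding sFRPs, Frzb had the next largest difference in fibroblasts. It had 33.5, 55.3 and 30.8 CPM in TKO libraries, against 13.6, 10.3 and 22 CPM in Cre libraries, with no overlap. The log2 fold change was 1.38 ± 0.31, with an adjusted p of 0.223 by edgeR and 1.39e-04 by DESeq2. Sfrp1 had 44.7, 85.5 and 32.4 CPM in TKO fibroblasts, against 25.4, 18.2 and 32.4 CPM in Cre fibroblasts (log2 fold change 1.10 ± 0.35, adjusted p = 0.289, edgeR). The lowest TKO library and the highest Cre library of Sfrp1 were almost equal (32.42 and 32.37 CPM). Sfrp4 had 6.23, 7.21 and 5.22 CPM in TKO fibroblasts, against 3.52, 4.26 and 5.30 CPM in Cre fibroblasts, which overlapped (log2 fold change 0.52 ± 0.20). Sfrp2 had 22.1, 70.8 and 19.5 CPM in TKO fibroblasts, against 18.2, 16.3 and 34.7 CPM in Cre fibroblasts, so that TKO replicate 2 alone stood high (log2 fold change 0.70 ± 0.51, and -0.15 without that library). TKO replicate 2 was also the highest fibroblast library for Sfrp1, Sfrp4, Frzb, Dkk2, Dkk3 and Rspo2. In the same libraries the 8 fibroblast markers summed to 5062 to 7401 CPM in TKO and 3105 to 5101 CPM in Cre, which overlapped. Of 24 cell type lists, 2 were higher in TKO without overlap, against 8.86% of single genes. These were endothelial markers (62.4 to 66.3 CPM in TKO, 48.2 to 60.9 CPM in Cre) and cartilage and tendon markers (58.1 to 63.5 CPM in TKO, 46.6 to 48.8 CPM in Cre). Macrophage markers alone were lower (101 to 137 CPM in TKO, 164 to 376 CPM in Cre), against 8.43% of single genes. The part of these lists in the differences of the members was not tested.

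In fibroblast-like single cells, Frzb had 49.9 and 43.1 CPM in TKO, against 9.10 and 17.3 CPM in Cre (log2 fold change 1.89 ± 0.34, adjusted p = 0.581 by edgeR and 0.0115 by DESeq2). Sfrp1 had 372 and 247 CPM in TKO, against 185 and 108 CPM in Cre (log2 fold change 1.08 ± 0.35), and Sfrp2 had 562 and 662 CPM in TKO, against 399 and 400 CPM in Cre (0.62 ± 0.23). Sfrp4 differed least, with 592 and 552 CPM in TKO, against 479 and 453 CPM in Cre (0.30 ± 0.22). All 4 sFRPs were higher in both TKO libraries than in both Cre libraries, and none passed by edgeR with all 4 libraries. Without Cre replicate 1, in a fit that called 0.922% of all genes, Sfrp1 and Frzb had adjusted p-values of 0.0207 and 0.0165 by edgeR, and without Cre replicate 2, in a fit that called 9.03%, Frzb had 1.21e-06. In both fits the lone Cre library is assumed to vary like the TKO libraries. Within cluster 0 alone, Frzb had 86.5 and 78.7 CPM in TKO, against 50.2 and 70.1 CPM in Cre, a log2 fold change of 0.41 ± 0.29 where that over all fibroblast-like cells was 1.89. Within cluster 0, Sfrp2 had 792 and 886 CPM in TKO, against 1488 and 886 CPM in Cre, and its log2 fold change was -0.57 ± 0.35, of the opposite sign. Sfrp1 in cluster 0 had 554 and 360 CPM in TKO, against 131 and 193 CPM in Cre (1.41 ± 0.34). Within cluster 0 the difference was thus smaller for Frzb, of the opposite sign for Sfrp2, and as large for Sfrp1 as over all fibroblast-like cells.

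**Figure D4:**
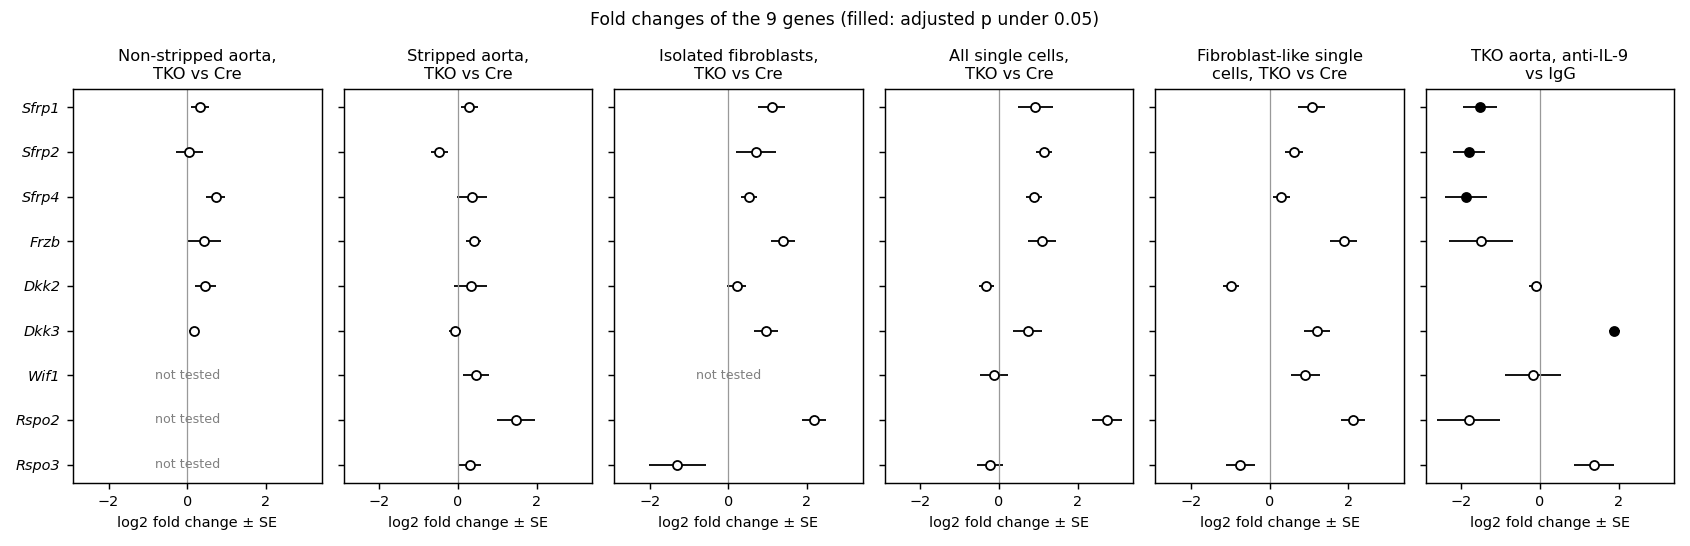
Log2 fold change ± SE of each of the 9 genes in 6 comparisons, TKO over Cre or anti-IL-9 over IgG, with filled points at an adjusted p under 0.05 (edgeR). Filled points appear for 4 genes in the anti-IL-9 comparison, and Rspo2 lies between 1.47 and 2.75 in the 4 TKO comparisons in which it was tested.

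In whole aorta the log2 fold changes of the sFRPs were between -0.47 and 0.72, and none passed. In non-stripped aorta Sfrp4 had 17.1, 19.3 and 12.4 CPM in TKO, against 13.3, 7.76 and 8.49 CPM in Cre, which overlapped (log2 fold change 0.72 ± 0.24, adjusted p = 0.174, edgeR). In stripped aorta Sfrp2 had 776 and 544 CPM in TKO, against 1011, 676, 964 and 1009 CPM in Cre (-0.47 ± 0.22, adjusted p = 0.403, edgeR), where 1 Cre library lay between the TKO libraries. Frzb in stripped aorta had 184 and 107 CPM in TKO, against 99.1, 112, 121 and 109 CPM in Cre, so that 1 TKO library stood high and the other lay within the Cre range.

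Wif1, which binds Wnts directly, had its highest level in smooth muscle-like cells. In stripped aorta it had 14.5 and 16.6 CPM in TKO, against 6.72, 13.5, 8.68 and 16.3 CPM in Cre, which overlapped (log2 fold change 0.46 ± 0.33, adjusted p = 0.582, edgeR), while the smooth muscle markers were lower in both of these TKO libraries than in the Cre libraries, as given above. In non-stripped aorta it had 1 to 2 counts per TKO library and 3 to 15 per Cre library, and in fibroblasts 3, 4 and 6 counts in TKO and 1, 1 and 3 in Cre, all below the filter. In smooth muscle-like cells Wif1 had 25.9 and 31.4 CPM in TKO, against 47.9 and 51.0 CPM in Cre, a description without a test. Smooth muscle-like cells held 17.9% and 35.6% of all Wif1 UMIs in TKO libraries, and 78.7% and 78.0% in Cre libraries, while their share of all UMIs was 3.6% and 4.4% in TKO and 10.7% and 5.0% in Cre. Fibroblast-like cells held 50.3% and 55.6% of the Wif1 UMIs in TKO libraries, and 18.6% and 17.1% in Cre libraries. Their Wif1 level was 7.89 and 7.18 CPM in TKO, against 4.72 and 2.88 CPM in Cre, without overlap (log2 fold change 0.91 ± 0.37, adjusted p = 1.00, edgeR), where B cell-like cells had 5.50 and 0 CPM in TKO, against 0.805 and 0 CPM in Cre.

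The Dickkopf genes differed in the order of their libraries, and neither passed by edgeR. Dkk3 had 8.03, 15.4 and 7.88 CPM in TKO fibroblasts, against 4.72, 4.36 and 7.0 CPM in Cre fibroblasts, without overlap (log2 fold change 0.96 ± 0.30, adjusted p = 0.288 by edgeR and 0.0381 by DESeq2). In fibroblast-like single cells Dkk3 had 192 and 136 CPM in TKO, against 88.9 and 51.1 CPM in Cre (1.22 ± 0.33, adjusted p = 0.794, edgeR), but within cluster 0 its log2 fold change was 0.22 ± 0.34. Dkk2 had 53.7 and 64.9 CPM in fibroblast-like TKO cells, against 114 and 119 CPM in Cre cells (-0.98 ± 0.20, adjusted p = 0.620, edgeR), and thinned shares of cells of 3.81% and 4.2% in TKO, against 7.70% and 6.70% in Cre, where B cell-like cells had 0.235% and 0.580% in TKO and 0.0803% and 0% in Cre. Within cluster 1, where Dkk2 is highest, it had 149 and 168 CPM in TKO, against 225 and 395 CPM in Cre (-0.99 ± 0.35), and within cluster 0 the log2 fold change was -0.04 ± 0.29. In fibroblast-like cells the edgeR adjusted p of Dkk3 was 0.00543 without Cre replicate 1 and 0.0487 without Cre replicate 2, and that of Dkk2 was 0.0113 without Cre replicate 2, in the 2 fits described above that called 0.922% and 9.03% of all genes with 1 Cre library. In isolated fibroblasts Dkk2 had 6.32, 8.01 and 4.17 CPM in TKO, against 5.06, 4.76 and 6.13 CPM in Cre, which overlapped. In whole aorta, Dkk3 had 37.1, 34.0 and 40.2 CPM in non-stripped TKO, against 36.9, 31.6 and 31.0 CPM in non-stripped Cre, and 576 and 430 CPM in stripped TKO, against 554, 566, 483 and 504 CPM in stripped Cre.

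Whether the genotype difference itself differed between sample types was tested by an interaction term. For stripped minus non-stripped aorta 0 of 9 members were called, against 0.00571% of genes, with 1 at an unadjusted p under 0.05 (18.2%) and 1 by DESeq2 (5.14%). That gene was Wif1 (2.80 ± 0.85 on the log2 scale, adjusted p = 0.136 by edgeR and 0.0402 by DESeq2). In non-stripped aorta Wif1 was below the filter, with 1 to 2 counts per TKO library and 3 to 15 per Cre library. Wif1 entered this test through its stripped counts, so the test cannot decide whether its genotype difference differed between the tissues. Rspo2 and Rspo3 were also below the filter in non-stripped aorta and entered the same way. For fibroblasts minus non-stripped aorta 0 of 8 were called, against 0.182% of genes, with 2 at an unadjusted p under 0.05 (14.9%) and 0 by DESeq2 (2.93%). These were Rspo2 (1.44 ± 0.61, adjusted p = 0.292, edgeR), which in non-stripped aorta was below the filter, with 4 to 10 counts per TKO library and 3 to 6 per Cre library, and entered this test through its fibroblast counts (114, 166 and 135 in TKO, 29, 22 and 37 in Cre), and Dkk3 (0.81 ± 0.33, adjusted p = 0.269, edgeR). The 2 tests share the non-stripped libraries.

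In TKO aorta given the anti-IL-9 antibody, 4 of 9 members passed against IgG by edgeR, 5 had an unadjusted p under 0.05 (43.8% of genes) and 4 passed by DESeq2 (34.8% of genes). By edgeR 32.1% of all genes were called, so that the members' share is near the background. Against IgG, Dkk3 rose and Sfrp1, Sfrp2 and Sfrp4 fell. The other non-stripped TKO aortas, counted apart, had 14.7 to 21.4 CPM of Sfrp1, 7.47 to 12.7 CPM of Sfrp2 and 12.4 to 19.3 CPM of Sfrp4. They had 34.0 to 40.2 CPM of Dkk3, and a fibroblast marker sum of 960 to 1330 CPM. For each of these genes and the sum, they lay below every IgG library given below, a difference that was not tested. Of all genes 21.0% were called higher and 11.0% lower. Without overlap of the groups, 2 of 9 were higher (Dkk3, Rspo3), against 32.1% of genes, and 3 of 9 lower, against 27.8%.

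Dkk3 had 253 and 226 CPM in anti-IL-9 aortas, against 64.6, 73.1 and 56.4 CPM in IgG aortas. Both anti-IL-9 libraries stood far above all 3 IgG libraries, and the log2 fold change was 1.89 ± 0.15 (3.71-fold, adjusted p = 2.01e-04, edgeR). It passed in each of the 5 fits that left out 1 library, where a lone anti-IL-9 library was assumed to vary like the IgG libraries. Rspo3 had 2.40 and 0.819 CPM in anti-IL-9 aortas, against 0.689, 0.510 and 0.689 CPM in IgG aortas (1.38 ± 0.51, adjusted p = 0.0809, edgeR). Among these 5 fits it passed only without anti-IL-9 replicate 2 (adjusted p = 0.0241, edgeR).

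Sfrp2 had 18.3 and 21.8 CPM in anti-IL-9 aortas, against 65.8, 105 and 38.7 CPM in IgG aortas (-1.81 ± 0.40, adjusted p = 0.0135, edgeR). Sfrp4 had 48.4 and 16.1 CPM in anti-IL-9 aortas, against 71.1, 170 and 116 CPM in IgG aortas (-1.88 ± 0.53, adjusted p = 0.0335, edgeR). Sfrp1 had 35.7 and 30.1 CPM in anti-IL-9 aortas, against 47.7, 149 and 87.6 CPM in IgG aortas (-1.53 ± 0.44, adjusted p = 0.0358, edgeR). IgG replicate 2 was the highest library for all 3, and each anti-IL-9 library lay below each IgG library. With 1 library left out the number of members called was 2 to 4: Sfrp1 and Sfrp4 were not called without IgG replicate 3, Sfrp4 not without IgG replicate 2, Sfrp1 and Sfrp2 not without anti-IL-9 replicate 1, and none of the 3 without anti-IL-9 replicate 2. Rspo2 had 0.440 and 0.710 CPM in anti-IL-9 aortas, against 1.33, 3.98 and 0.626 CPM in IgG aortas, and Frzb 3.04 and 1.42 CPM in anti-IL-9 aortas, against 3.60, 13.4 and 2.07 CPM in IgG aortas, and neither passed. Dkk2 (-0.11 ± 0.17) and Wif1 (-0.18 ± 0.71) did not pass either.

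**Figure D5:**
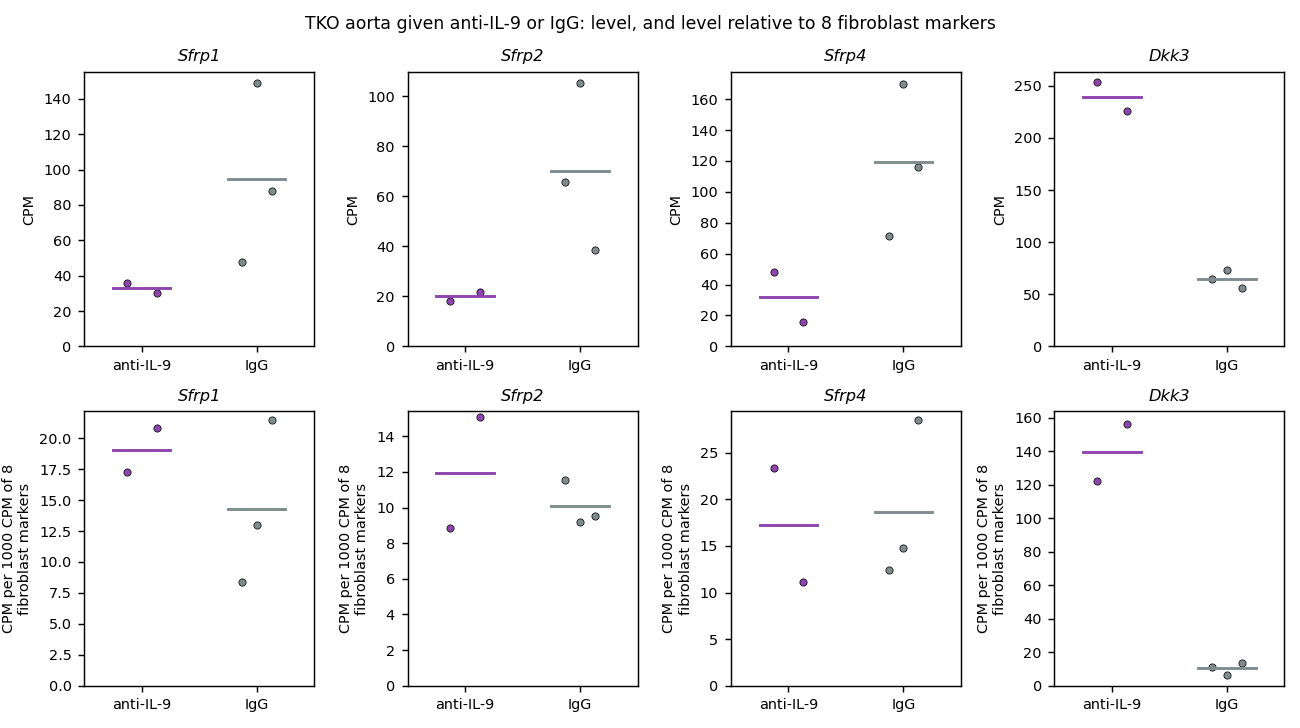
Sfrp1, Sfrp2, Sfrp4 and Dkk3 in anti-IL-9 and IgG libraries, as CPM (top) and per 1000 CPM of the 8 summed fibroblast markers (bottom). The sFRPs lie lower in the anti-IL-9 libraries as CPM but overlap the IgG libraries once divided by the marker sum. Dkk3 lies above on both scales, which the lower marker sum of the anti-IL-9 libraries fixes for any gene higher as CPM.

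Several cell type lists moved with the antibody in the same libraries. All 8 fibroblast markers fell, and their sum was 1445 to 2068 CPM in anti-IL-9 aortas, against 4075 to 11484 CPM in IgG aortas. All 6 mesothelial markers fell (sum 4.26 to 7.0 CPM against 133 to 305 CPM in IgG), and all 5 tested macrophage markers (137 to 158 CPM against 360 to 611 CPM in IgG) and 5 of 6 endothelial markers fell as well. Smooth muscle markers rose in 5 of 6 cases (sum 1478 to 1480 CPM against 542 to 832 CPM in IgG), Schwann markers in 5 of 6, and all 10 genes of sympathetic neurons, a list chosen after the values were seen, rose to a sum of 5159 to 5625 CPM, against 313 to 718 CPM in IgG. Per 1000 CPM of the fibroblast sum, Sfrp2 was 8.84 and 15.1 in anti-IL-9 aortas, against 11.5, 9.17 and 9.50 in IgG aortas. Sfrp1 was 17.3 and 20.9 in anti-IL-9 aortas, against 8.35, 13 and 21.5 in IgG aortas, and Sfrp4 23.4 and 11.1, against 12.5, 14.8 and 28.6 in IgG aortas, so that the groups of all 3 overlapped on this scale. Dkk3 was 123 and 156 in anti-IL-9 aortas, against 11.3, 6.37 and 13.8 in IgG aortas. Since the fibroblast sum was lower in both anti-IL-9 libraries, any gene higher as CPM must also be higher on this scale, so it cannot inform on Dkk3. Dkk3 was not scaled to the smooth muscle markers, which rose. The part of the cell make-up of these libraries in the called differences was not tested.

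A list of 83 symbols of other Wnt pathway genes was also read, some genes under an old and a new symbol (Wisp1 and Ccn4, Wisp2 and Ccn5). Of these, the genotype comparisons called none by edgeR: 0 of 60 tested in non-stripped aorta, 0 of 67 in stripped aorta, 0 of 60 in fibroblasts, 0 of 64 in all single cells and 0 of 58 in fibroblast-like cells. At an unadjusted p under 0.05 there were 15 in non-stripped aorta (against 17.9% of all genes), 16 in stripped aorta (13.8%), 13 in fibroblasts (12.1%), 6 in all single cells (2.26%) and 9 in fibroblast-like cells (4.91%). DESeq2 called 6 in non-stripped aorta (5.24% of all genes), 4 in stripped aorta (3.54%), 3 in fibroblasts (2.68%), 2 in all single cells (0.593%) and 2 in fibroblast-like cells (0.324%), where it gave no adjusted p for 15 of the 58. The median log2 fold change of the tested Wnt genes was -0.02, -0.12, 0.08, 0.09 and 0.07 in that order of comparisons, where that of all tested genes was -0.02, 0.00, 0.01, -0.01 and 0.00. In fibroblasts the smallest p-values belonged to Wls, which carries Wnts to the surface of the secreting cell (log2 fold change 0.48 ± 0.08, adjusted p = 0.152, edgeR), the ligand Wnt11 (-0.63 ± 0.14) and the receptor Fzd7 (0.37 ± 0.10). In fibroblast-like cells they belonged to Ccn4, a matricellular protein (1.56 ± 0.27, adjusted p = 0.581, edgeR), Lgr5, a receptor of the R-spondins, and the ligand Wnt5b (-1.50 ± 0.39). Lgr5 had 35 and 29.9 CPM in fibroblast-like TKO cells, against 1.20 and 5.76 CPM in Cre cells (3.60 ± 0.68, adjusted p = 0.581, edgeR), without overlap, on 324 and 104 UMIs in TKO and 14 and 14 UMIs in Cre. In non-stripped aorta they were Apc (0.46), Fzd6 (-1.23) and Tnfrsf19 (2.28), and in stripped aorta Lef1 (3.04, high in 1 of 2 TKO libraries), Kremen1 (-0.52) and Sfrp5 (1.89), all log2 fold changes that did not pass.

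With the anti-IL-9 antibody, 28 of 68 tested Wnt genes were called (15 higher, 13 lower), against 32.1% of all genes, and their median log2 fold change was -0.24, where that of all genes was -0.01. Sfrp5, a further sFRP, rose to 42.8 and 52.0 CPM in anti-IL-9 aortas, against 10.3, 6.07 and 6.70 CPM in IgG aortas (2.62 ± 0.23, adjusted p = 2.85e-04, edgeR). Dkk1, the best known inhibitor of the LRP co-receptors, rose to 21.9 and 25.2 CPM, against 2.28, 0.602 and 1.00 CPM in IgG aortas (4.19 ± 0.43, adjusted p = 5.12e-04, edgeR). Gsk3b, a kinase of the complex that degrades beta-catenin, rose as well (0.97 ± 0.10). Sfrp5 and Dkk1 thus lay in the same direction as Dkk3, opposite to Sfrp1, Sfrp2 and Sfrp4. These genes are named because they had the smallest edgeR p-values of the 68, and whether secreted inhibitors share a direction was not tested.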

How the data were processed

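RNA of aorta and of isolated aortic fibroblasts was measured by bulk RNA-seq, and digested aorta by 10x 3′ single-cell RNA-seq, per the labels' protocols. The authors deposited raw read counts per gene for the bulk libraries, and UMI counts per gene and barcode for the single cells. GRCm38, STAR 2.5.2b, Subread 1.5.2, Trimmomatic 0.36 and featureCounts are listed in the submitters' processing notes, and no source used here names a strand setting. In the stripped table, 1 column of values that matched no sample's labels was not used, and a row with no gene name, at most 0.0025% of counts, was left out.

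Each table was fitted apart over all its genes with edgeR 4.0.16 (quasi-likelihood test, TMM factors, filterByExpr with a minimum count of 10, R 4.3.3), with Benjamini-Hochberg adjustment and a threshold of 0.05. The interaction terms were fitted over both tables' libraries. CPM of bulk libraries and of single cells summed per library were scaled by the TMM factors, while CPM per cluster were not. Alternatives were DESeq2 1.42.0, RLE factors, no filter, leaving out each library, a replicate block and a minimum of 2000 UMIs per cell. The fits were tested on simulated data.

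Cells had at least 500 genes and 1000 UMIs and at most 15% mitochondrial UMIs, and 1.41% to 3.93% of cells per library were left out as doublets by a simulated-doublet score. The 42805 cells were clustered (30 principal components of 2000 genes, 20 neighbours, Leiden resolution 1, leidenalg 0.10.2) without the 9 genes and the Wnt list into 35 clusters, of which 23 were named from marker lists and 12, with 9552 cells, were not. B cell-like cells served as the class that should lack the genes. Bulk groups were taken from the labels. The 9 genes and the lists were chosen with earlier results of these data known. All 9 genes are named, and of the Wnt list up to 3 genes per comparison with the smallest p. Intervals and limits cover counting error only.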

Additional observations from a re-analysis of the deposited data

Results flagged for a closer look

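In stripped Cre aorta, the only group with 4 libraries and so the only one in which single libraries were looked for, Sfrp2 had 1 library far from the others. Replicate 2 had 676 CPM, while the other 3 libraries had 964, 1009 and 1011 CPM, and the gap to the nearest library made up 0.859 of the whole range, above Dixon's critical value of 0.829 for 4 samples. For a single gene, chance flags about 1 in 20 sets of 4 values at this critical value. All 9 members were looked at in this group, so the chance of at least 1 flag among them is above 1 in 20. The flag of Sfrp2 is a description only.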

How the results depend on the processing

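Counts of members called moved with the tool, the filter and single libraries, and why they moved was not tested. In isolated fibroblasts 0 were called by edgeR, 3 by DESeq2 and 4 without a filter on low counts (2.26% of all genes). In all single cells 0 were called by edgeR, 3 by DESeq2, 4 without a filter (1.14% of all genes) and 0 to 1 with 1 library left out (0% to 0.761%). In fibroblast-like cells 0 were called by edgeR, 1 by DESeq2, 5 without a filter (1.55% of all genes) and 0 to 5 with 1 library left out: without Cre replicate 1 (0.922% of all genes) Sfrp1, Frzb and Dkk3, and without Cre replicate 2 (9.03%) Frzb, Rspo2, Rspo3, Dkk2 and Dkk3. With the anti-IL-9 antibody 4 were called by edgeR, 7 without a filter (24.6% of all genes) and 2 to 4 with 1 library left out (20.7% to 27.6%). DESeq2 called 1 for stripped minus non-stripped aorta (5.14% of all genes), which was Wif1, below the filter in non-stripped aorta. The fit without a filter called 2 for fibroblasts minus non-stripped aorta (3.11%). Over all genes, edgeR called 18, 4, 10 and 0 and DESeq2 794, 591, 420 and 42 in non-stripped aorta, stripped aorta, fibroblasts and fibroblast-like cells.

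With the replicate number as a block, 1 member (Rspo2, log2 fold change 2.77, adjusted p = 0.0398 by edgeR) passed in all single cells (0.478% of all genes), and 0 in fibroblast-like cells (0.169%). The numbers are not known to pair the libraries, and deviations of same-numbered libraries had r = 0.447 over all cells and 0.458 over fibroblast-like cells, from 2 pairs.

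Some log2 fold changes that did not pass changed sign with 1 library left out. Their ranges were -0.25 to 0.41 (Sfrp2) and -0.23 to 0.69 (Frzb) in non-stripped aorta, and -0.18 to 0.755 (Sfrp4), -0.049 to 0.74 (Frzb), -0.081 to 0.62 (Rspo3) and -0.29 to 0.13 (Dkk3) in stripped aorta. They were -0.15 to 1.12 (Sfrp2) and -0.019 to 0.43 (Dkk2) in fibroblasts, -0.998 to 0.73 (Wif1) with the antibody, and -0.57 to 0.092 (Rspo3) and -0.44 to 0.36 (Wif1) in all single cells. Within single clusters, a choice made after seeing the data, Sfrp2 was at -0.57 and Wif1 at -0.42 in cluster 0, and Sfrp4 at -0.24 in cluster 1. Of the other values, 191 under other settings and 258 with 1 library left out kept their direction and side of the threshold. Low counts limit Rspo2, Rspo3 and Wif1.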
